A study of Mus musculus with 13 samples.

Results

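RNA levels of 10 genes of the contractile actin apparatus and of the actin-responsive cell surroundings were followed in mouse ES cells with and without expression of CTCF S224E, a form of the chromatin protein CTCF in which glutamate stands in for a phosphorylated serine. The genes were 10 of the 24421 genes in both count tables. They were chosen by name, without a threshold on their values, but with earlier results of these data known. They comprise 8 contractile and actin-binding genes, namely the smooth muscle actins Acta2 and Actg2, the myosin light chain Myl9, the actin-binding genes Tagln, Cnn1 and Cald1 and the tropomyosins Tpm1 and Tpm2, and 2 genes of secreted matricellular proteins, Ctgf and Cyr61. All 10 were among the 20044 genes that had a count in any of the libraries, and these were the genes tested. Shares over all genes are given beside counts of the 10 as a description, not as a test of enrichment. The cells were F1-2.1, a female ES line from a CAST/Ei x 129/Sv/Jae cross, and all libraries came from a single clone, A2, that carries a Tet-on S224E transgene and keeps its endogenous CTCF. The +dox group (n = 2 libraries) received 1 µg/mL doxycycline (dox) for 6 days, and the −dox group (n = 2) was cultured equally long without it. All cultures were on γ-irradiated mouse embryonic fibroblast (MEF) feeders. RNA of cells given dox without the transgene was not analysed here, and the action of S224E cannot be told apart from that of dox.

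Contraction of smooth muscle rests on myosin filaments that pull on filaments of smooth muscle actin once the regulatory light chain of myosin is phosphorylated, while tropomyosin, calponin and caldesmon lie along the actin filament and tune that pull. Many genes of this apparatus are controlled by serum response factor (SRF), which binds a DNA element called the CArG box and works with the coactivators MRTF and myocardin. MRTF is held by actin monomers and is freed when actin polymerizes. Ctgf and Cyr61 are widely used as readouts of YAP and TAZ, coactivators that bind DNA through the TEAD factors and respond to cell tension. The same genes are active in cultured fibroblasts and myofibroblasts, and are not specific to smooth muscle.

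Promoter sequence was examined because both regulators act through short DNA motifs. RefSeq promoters of GRCm38.p6, from 250 bases before to 50 bases after the gene start, were matched for 7 of the 10 genes (8 promoters, 2 of them of Cald1, with Cyr61 under the symbol Ccn1). Actg2, Tagln and Ctgf were not matched. The CArG box was searched by its consensus and also with 1 other base in its A/T core, and the TEAD motif as GGAATG, each on both strands. Among all 32851 promoters of 300 bases, 1.63% held a CArG box, 8.5% one with 1 other core base and 14.7% the TEAD motif. The 30-base windows below show each match in the contractile and matricellular genes, with the motif in capitals and the sequence 5′ to 3′ on the strand of the gene.
Acta2, near-CArG, chr19:34255438-34255467, minus strand: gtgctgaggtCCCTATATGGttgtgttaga
Acta2, near-CArG, chr19:34255388-34255417, minus strand: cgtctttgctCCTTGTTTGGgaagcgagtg
Acta2, TEAD motif, chr19:34255502-34255531, minus strand: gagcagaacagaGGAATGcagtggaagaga
Myl9, CArG box, chr2:156775293-156775322, plus strand: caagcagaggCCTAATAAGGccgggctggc
Myl9, near-CArG, chr2:156775355-156775384, plus strand: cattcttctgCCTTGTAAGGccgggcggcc
Tpm1, TEAD motif, chr9:67049252-67049281, minus strand: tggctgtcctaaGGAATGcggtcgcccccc
Cald1, TEAD motif, chr6:34598339-34598368, plus strand: gagcatgcctagGGAATGacaggcatctgc
Cyr61, TEAD motif, chr3:145650071-145650100, minus strand: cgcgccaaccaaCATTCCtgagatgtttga

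Both near-CArG matches of Acta2 began 84 and 34 bases before its start, and its TEAD motif 146 bases before. In Myl9 the CArG box began 161 bases and the near-CArG match 99 bases before the start. The TEAD motif began 56 bases before the start of Tpm1 and 103 before that of Cyr61, where it lies on the other strand. In Cald1 it began 153 bases before the start in 1 of its 2 promoters. The counted Cald1 transcript starts at mm9 chr6:34659444 and the annotated gene at 34548500, so this match need not lie at the counted start. All of the above are matches of letters in a fixed window, and binding was not measured here.

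Between 22899107 and 30206085 exon reads were counted per library. Levels in CPM are counts scaled to library size (TMM). Ctcf, which counts the endogenous gene and may count the transgene, lay at 328 ± 1.56 CPM (SD, n = 2) with dox and 299.8 ± 6.44 without. Its log2 fold change was 0.13, with an SE of 0.09 and an adjusted p of 0.475 by edgeR's quasi-likelihood test. The paper reports RNA-seq reads that carry the glutamate codon at the mutated position, and states that S224E was present at a modest RNA level. The libraries differed in fibroblast RNA. The summed level of 26 fibroblast (feeder) genes, none of which is among the 10, was 1783 CPM in +dox replicate 1, 732 CPM in the other +dox library and between 593 and 624 CPM in the −dox libraries. Chromosome Y genes, which a female line lacks, had 236 reads in +dox replicate 1 and between 67 and 76 in the other 3 libraries. In such bulk samples, fewer cells of a type and less RNA per cell cannot be told apart.

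With dox, Acta2, Actg2, Myl9 and Ctgf had higher mean levels, by 1.35- to 2.44-fold, Tpm1 had a lower one, and Tagln, Cnn1, Tpm2, Cald1 and Cyr61 overlapped between the groups. None of the 10 passed the threshold of an adjusted p of 0.01 in edgeR's quasi-likelihood test, which called 0.599% of all genes tested (0.0798% higher and 0.519% lower). At an unadjusted p under 0.05 the test gave 5 of the 10 (17.8% of all genes), of which 4 were higher (8.48%) and 1 lower (9.31%). DESeq2, the tool named in the study's methods, called 1 of the 10, Actg2, as higher, and 1.87% of all genes (0.589% higher and 1.28% lower). Both +dox libraries lay above both −dox libraries in 4 genes and below in 1, whereas of the 13911 genes that averaged 1 CPM or more (expressed genes) 26.1% lay above and 27.7% below. The median log2 fold change of the 10 was 0.20, against 0.01 over all genes tested.

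**Figure D1:**
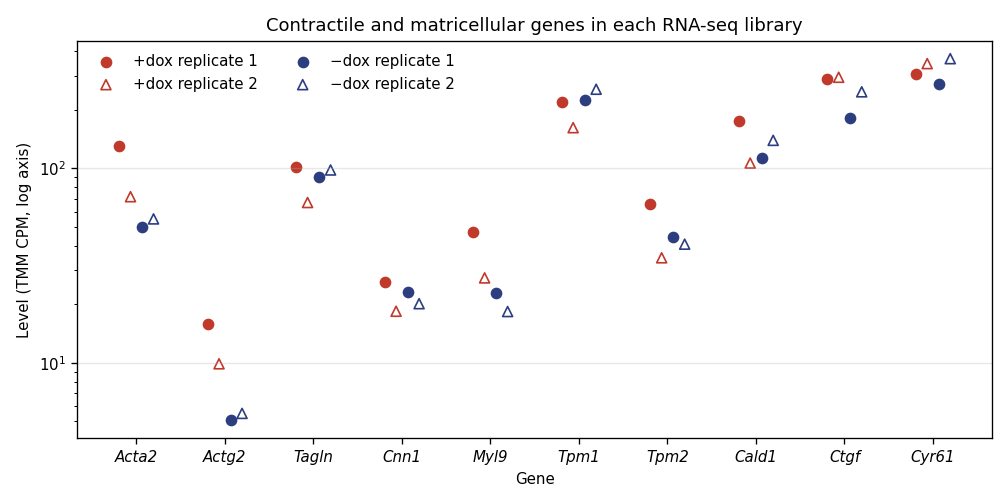
Level of each of the 10 genes in CPM (log axis) in the 4 libraries, with +dox in red, −dox in blue, filled circles for replicate 1 and open triangles for replicate 2. Acta2, Actg2, Myl9 and Ctgf lay higher in both +dox libraries, and in the 8 contractile genes +dox replicate 1 lay above +dox replicate 2.

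Acta2, the smooth muscle alpha-actin that also marks myofibroblasts, is transcribed from the minus strand (mm9 chr19:34314826-34329863). Its level was 130.0 and 71.6 CPM in +dox replicates 1 and 2, and 50.1 and 55.0 CPM in −dox replicates 1 and 2. The +dox libraries both lay above the −dox libraries, and they lay far apart from each other. The means were 100.8 ± 41.3 CPM with dox and 52.5 ± 3.52 without (SD, n = 2 each), a log2 fold change of 0.94 (SE 0.20), with an unadjusted p of 5.71e-04 and an adjusted p of 0.0323 by edgeR's quasi-likelihood test. This did not pass the threshold, and DESeq2 gave an adjusted p of 0.185. Of the 1732 stretches of 50 bases in its transcript, 7 were shared with Actg1, and none of the other 9 genes shared any with another protein-coding gene.

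Actg2, the smooth muscle gamma-actin of the gut and bladder (mm9 chr6:83462903-83486245, minus strand), had the largest fold change of the 10 genes. Its level was 15.9 and 9.90 CPM in +dox replicates 1 and 2, and 5.07 and 5.50 CPM in −dox replicates 1 and 2. Again the groups did not overlap. The means were 12.9 ± 4.28 with dox and 5.29 ± 0.30 CPM without (SD, n = 2 each), a log2 fold change of 1.29 (SE 0.25, 2.44-fold). The adjusted p was 0.0193 by edgeR's quasi-likelihood test, which missed the threshold, and 0.00122 by DESeq2, which passed it. It was also the gene with the fewest reads, between 138 and 359 per library.

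Of the 4 actins outside the smooth muscle pair, both +dox libraries lay above both −dox libraries in 2 (26.1% of expressed genes) and below in 2 (27.7%). Actb, the main cytoplasmic actin, lay at 3138 and 3199 CPM with dox and at 2418 and 2514 CPM without, with a log2 fold change of 0.36 and an adjusted p of 0.0249 by edgeR and of 0.0035 by DESeq2. Actg1, the other cytoplasmic actin, had a log2 fold change of 0.22 (adjusted p = 0.275 by edgeR). The cardiac actin Actc1 fell, from 4.81 and 5.26 CPM without dox to 0.93 and 0.53 CPM with dox (log2 fold change −2.78, SE 0.33, adjusted p = 0.0014 by edgeR's quasi-likelihood test), and was the single gene of all lists examined to pass the threshold. DESeq2 called it too, but edgeR did not call it with adjusted deviances or filterByExpr, settings that called 0 and 11 genes of all tested. It was also not called in the fits without either of the −dox libraries, described below. The skeletal actin Acta1 had a log2 fold change of −0.79 (adjusted p = 0.208 by edgeR).

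Myl9 codes for the regulatory light chain of smooth muscle myosin (mm9 chr2:156601200-156607393, plus strand). Its level was 47.3 and 27.4 CPM in +dox replicates 1 and 2, and 23.0 and 18.4 CPM in −dox replicates 1 and 2. Both +dox libraries lay above both −dox libraries, and replicate 1 was the higher one in each group. The means were 37.3 ± 14.1 with dox and 20.7 ± 3.26 CPM without (SD, n = 2 each), with a log2 fold change of 0.85 (SE 0.22). The adjusted p was 0.0614 by edgeR's quasi-likelihood test and 0.0143 by DESeq2, and neither passed the threshold.

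Tagln (transgelin, or SM22-alpha), an actin-bundling protein and a common early smooth muscle marker, overlapped between the groups. Its level was 101.5 and 66.8 CPM in +dox replicates 1 and 2, and 90.6 and 98.2 CPM in −dox replicates 1 and 2. The −dox libraries lay between the +dox libraries, and the log2 fold change was −0.17 (SE 0.16, adjusted p = 0.657 by edgeR's quasi-likelihood test). Its exons (mm9 chr9:45737711-45744141, minus strand) overlap Pcsk7 on the opposite strand, and since the strand use of the counting is not given in the sources used here, this count is uncertain.

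Cnn1 (calponin, an actin-binding inhibitor of the myosin ATPase; mm9 chr9:21903697-21913665, plus strand) lay at 26.1 and 18.4 CPM in +dox replicates 1 and 2 and at 23.1 and 20.2 CPM in −dox replicates 1 and 2. The −dox values again fell between the +dox values, with a log2 fold change of 0.04 (SE 0.18, adjusted p = 0.935 by edgeR) that turned to −0.0015 under scaling to total counts. Cald1 (caldesmon, which blocks myosin binding to actin; mm9 chr6:34659444-34725469, plus strand) lay at 175 and 107 CPM in +dox replicates 1 and 2, and at 114 and 140 CPM in −dox replicates 1 and 2. The groups overlapped, with a log2 fold change of 0.15 (SE 0.18, adjusted p = 0.709 by edgeR).

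Neither of the tropomyosins, which wind along actin filaments, passed the threshold. Tpm1 (mm9 chr9:66870400-66897020, minus strand) lay at 220.2 and 162 CPM in +dox replicates 1 and 2, and at 225 and 256 CPM in −dox replicates 1 and 2. It was the one gene of the 10 with both +dox libraries below both −dox libraries, with a log2 fold change of −0.33 (SE 0.13), an unadjusted p of 0.0251 and an adjusted p of 0.196 by edgeR, so it did not pass. In replicate 1 the gap between +dox and −dox was within counting error. Tpm2 (mm9 chr4:43526598-43536426, minus strand) lay at 65.9 and 34.7 CPM in +dox replicates 1 and 2, and at 44.5 and 40.8 CPM in −dox replicates 1 and 2, so that the −dox values lay between the +dox values (log2 fold change 0.24, SE 0.22, adjusted p = 0.649 by edgeR).

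Ctgf (connective tissue growth factor; mm9 chr10:24315248-24318488, plus strand) lay at 288 and 294 CPM in +dox replicates 1 and 2, and at 182 and 248 CPM in −dox replicates 1 and 2. The +dox libraries were close to each other and above both −dox libraries. The means were 291 ± 4.68 with dox and 215 ± 46.5 CPM without (SD, n = 2 each), with a log2 fold change of 0.44 (SE 0.12). The adjusted p was 0.0828 by edgeR and 0.0433 by DESeq2, and neither passed the threshold. Its exons overlap Gm15270 on the opposite strand, so its count is uncertain too. Cyr61 (mm9 chr3:145309935-145312949, minus strand), a related matricellular gene, lay at 306 and 346 CPM in +dox replicates 1 and 2, and at 273 and 367 CPM in −dox replicates 1 and 2, overlapping between the groups (log2 fold change 0.03, SE 0.13, adjusted p = 0.941 by edgeR, and −0.0175 under scaling to total counts).

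The 2 replicates gave different pictures of the contractile genes. In the table of replicate 1, 9 of the 10 genes were higher with dox, and Acta2, Actg2 and Myl9 were over 2-fold higher, against 2.95% of expressed genes. In the table of replicate 2, 4 of the 10 were higher and 0 over 2-fold higher, against 0.704%. The log2 ratio of replicate 1 was above that of replicate 2 in all 10 genes, by 0.25 to 1.01, where 47.3% of expressed genes show that order. Each ratio compares 1 library with 1, so there was no test of it, and the intervals given are exact Clopper-Pearson 95% intervals for counting error only.

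The smooth muscle actins and Myl9 were higher in both replicates. The log2 ratio of Acta2 was 1.38 (1.29 to 1.47) in replicate 1 and 0.38 (0.28 to 0.48) in replicate 2. That of Actg2 was 1.64 (1.38 to 1.93) and 0.84 (0.54 to 1.16), and that of Myl9 was 1.04 (0.90 to 1.18) and 0.57 (0.40 to 0.75). The sizes differed between the replicates beyond counting error in all 3 genes.

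In 5 of the 10 genes the sign itself differed, against 30.3% of expressed genes. The log2 ratio of Cald1 was 0.62 (0.55 to 0.69) in replicate 1 and −0.39 (−0.46 to −0.31) in replicate 2, that of Tpm2 0.57 (0.46 to 0.67) and −0.23 (−0.37 to −0.10), and that of Tagln 0.16 (0.08 to 0.24) and −0.56 (−0.65 to −0.46). Cnn1, at 0.18 (0.02 to 0.34) and −0.13 (−0.32 to 0.06), was the one gene of the 10 whose intervals overlapped between the replicates. Cyr61 gave 0.16 (0.12 to 0.21) and −0.08 (−0.13 to −0.04). The remaining pair kept a sign each, with Ctgf at 0.66 (0.61 to 0.71) and 0.25 (0.20 to 0.30), and Tpm1 at −0.03 (−0.09 to 0.02) and −0.66 (−0.72 to −0.60).

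**Figure D2:**
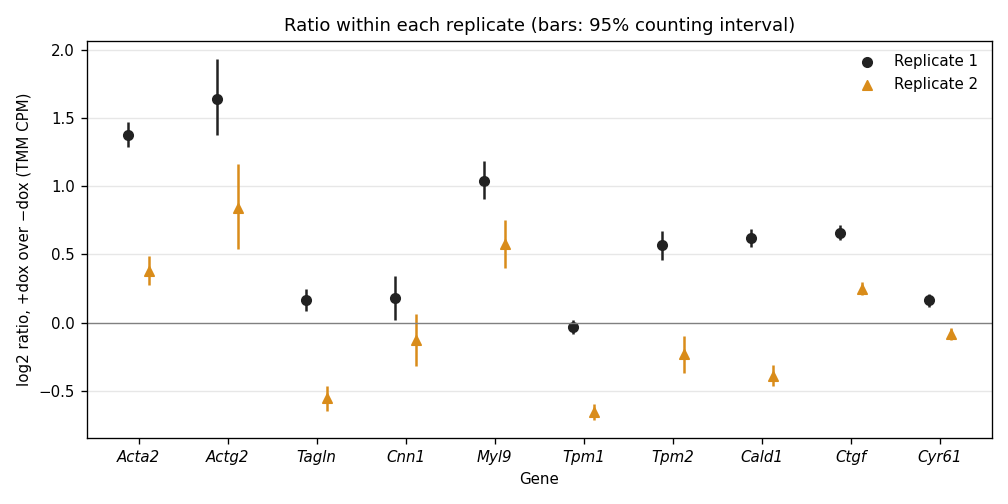
Log2 ratio of +dox to −dox within the table of replicate 1 and within that of replicate 2 for each of the 10 genes, with bars for 95% Clopper-Pearson intervals of counting error (1 library against 1). Every gene lies higher in replicate 1, and Tagln, Cnn1, Tpm2, Cald1 and Cyr61 change sign.

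The gap lay mostly between the +dox libraries. +dox replicate 1 was above +dox replicate 2 in 8 of the 10 genes, all 8 contractile and actin-binding ones, by 0.44 to 0.92 on the log2 scale, against 47.7% of expressed genes. −dox replicate 1 was above −dox replicate 2 in 3 of the 10. Ctgf and Cyr61 did not have this order, and differed by −0.03 and −0.18 between the +dox libraries and by −0.44 and −0.43 between the −dox libraries. The summed level of the 8 contractile genes was 782 and 498 CPM in +dox replicates 1 and 2, and 576 and 633 CPM in −dox replicates 1 and 2, so the +dox libraries stood on both sides of the −dox libraries.

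**Figure D3:**
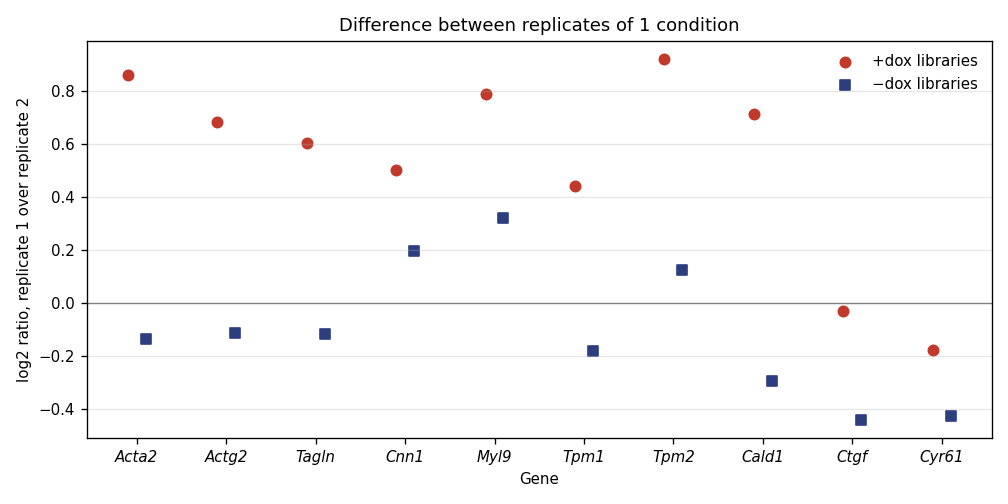
Log2 difference of replicate 1 minus replicate 2 for each of the 10 genes, for the +dox libraries and for the −dox libraries (1 library minus 1, no error bars). The 8 contractile genes lie above 0 between the +dox libraries, and Ctgf and Cyr61 do not.

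Leaving out +dox replicate 1 or +dox replicate 2 changed which genes passed. Without +dox replicate 1, edgeR called 4 of the 10 (5.07% of all genes, 1.51% higher and 3.56% lower): Actg2 (log2 fold change 0.90, adjusted p = 0.00722) and Ctgf (0.45, adjusted p = 0.00365) as higher, and Tagln (−0.50, adjusted p = 0.00840) and Tpm1 (−0.57, adjusted p = 2.72e-04) as lower. Without +dox replicate 2 it called 6 (4.43% of all genes, 2.62% higher and 1.81% lower), all higher, namely Acta2 at 1.31, Actg2 at 1.59, Myl9 at 1.19, Tpm2 at 0.63, Cald1 at 0.47 and Ctgf at 0.42. Actg2 and Ctgf were called in both of these fits. Over all alternatives the adjusted p ran from 6.73e-10 to 0.670 for Actg2, from 0.00272 to 0.670 for Ctgf, from 0.00840 to 0.906 for Tagln and from 2.72e-04 to 0.724 for Tpm1. Without −dox replicate 1 or −dox replicate 2 edgeR called 0 genes of all tested, with 1753 and 1450 at an unadjusted p under 0.05, which held 1 and 2 of the 10. The lone library of a group is assumed in these fits to vary like the others. Without a +dox library, spread within a group is seen in the −dox pair alone, and both such fits share that pair. In the 8 contractile genes the −dox pair had the smaller SD (Acta2, 3.52 CPM against 41.3 CPM with dox). In Ctgf and Cyr61 it had the larger one (Ctgf, 46.5 CPM against 4.68 CPM with dox). Without +dox replicate 1, 4 of the 10 genes did not overlap from above (39.7% of expressed genes) and 5 from below (39.4%), and without +dox replicate 2, 8 did from above (36.8%) and 1 from below (40.1%).

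The same replicate stood apart in fibroblast genes. +dox replicate 1 was above +dox replicate 2 in all 26 fibroblast genes, and their median log2 ratio of +dox to −dox was 1.61 in replicate 1 and 0.29 in replicate 2. EdgeR and DESeq2 each called 0 of the 26. At an unadjusted p under 0.05 in edgeR's test, 20 were higher (8.48% of all genes) and 0 lower (9.31%). Both +dox libraries lay above both −dox libraries in 18 of the 26 (26.1% of expressed genes) and below in 0 (27.7%). Their log2 ratio was positive for 26 in replicate 1 and for 19 in replicate 2. Fbln2, a matrix glycoprotein, lay at 309 and 134 CPM in +dox replicates 1 and 2 and at 94.0 and 117 CPM in −dox replicates 1 and 2, and Col5a1, a collagen chain, at 216, 90.4, 83.4 and 90.3 CPM in the same order. None of the 26 was at 0 in all libraries, and 24 had a mean of at least 1 CPM. The part of feeder RNA in the levels of the contractile genes was not tested.

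**Figure D4:**
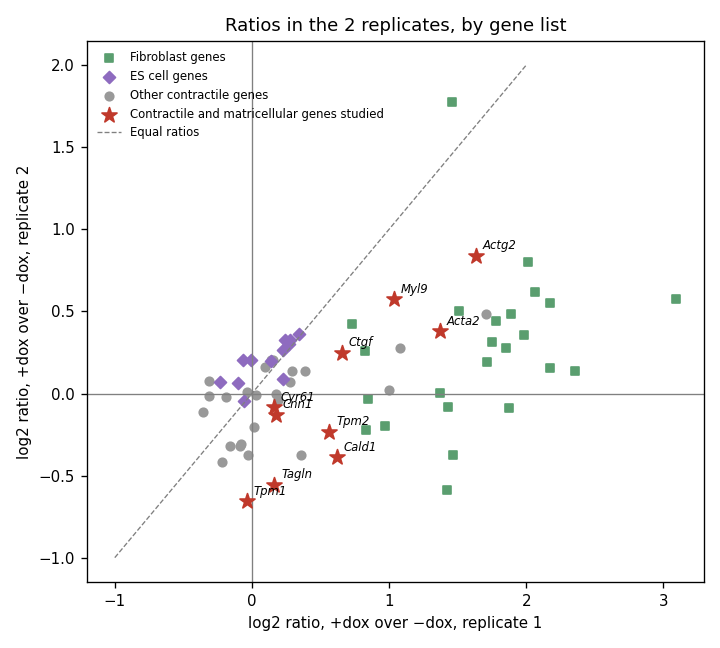
Log2 ratio of +dox to −dox in replicate 1 (horizontal) against that in replicate 2 (vertical), 1 point per gene with a mean of 1 CPM or more, for the 10 genes (stars) and for the lists of fibroblast, ES cell and other contractile genes; the dashed line marks equal ratios. The fibroblast genes reach to the right, the median of all 26 being 1.61 in replicate 1 but 0.29 in replicate 2.

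Per transcript length, Cyr61 had the highest level of the 10, with a mean of 159.8 RPKM over the 4 libraries (range 135 to 182), followed by Tpm1 at 128 (95.9 to 151), Ctgf at 106 (76.1 to 123), Tagln at 56.5 (42.3 to 64.3), Cald1 at 33.3 (26.5 to 43.5), Acta2 at 29.9 (19.5 to 50.7), Myl9 at 26.9 (17.1 to 43.9), Tpm2 at 14.4 (10.7 to 20.4), Cnn1 at 11.1 (9.32 to 13.2) and Actg2 at 6.98 (3.89 to 12.2). Of the 9 neighbouring pairs in this order, 8 had overlapping ranges, and Ctgf and Tagln lay apart. The order therefore parts the matricellular genes and Tpm1 from the others, and does not resolve neighbours within either set.

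Of 10 genes listed as smooth muscle markers, which include Acta2, Actg2 and Cnn1, edgeR called 0 and DESeq2 called Actg2 alone. At an unadjusted p under 0.05 by edgeR, 4 were higher (8.48% of all genes) and 1 lower (9.31%). Both +dox libraries lay above both −dox libraries in 6 of the 10 (26.1% of expressed genes) and below in 1, Smtn (27.7%). Their log2 ratio was positive for 8 in replicate 1 and for 7 in replicate 2, and their median log2 fold change was 0.37, against 0.01 over all genes tested. Without Acta2, Actg2 and Cnn1, 4 of the other 7 lay above (26.1% of expressed genes) and 1 below (27.7%), with a median of 0.13. Of the 4 that lay above, Des (desmin) was at 12.17 and 13.58 CPM with dox and at 11.36 and 12.16 CPM without. Mylk was at 2.04 and 1.05 CPM with dox and at 0.98 and 1.04 CPM without. In both genes the groups parted narrowly. Myh11, the smooth muscle myosin heavy chain, lay at 8.84 and 3.33 CPM with dox and at 2.65 and 2.35 CPM without (log2 fold change 1.28, adjusted p = 0.0945 by edgeR). Lmod1, an actin nucleator, had a log2 fold change of 0.73 (adjusted p = 0.168 by edgeR). Mylk, the myosin light chain kinase, had one of 0.61 (adjusted p = 0.476 by edgeR). The log2 ratio of Lmod1 was 1.08 in replicate 1 and 0.28 in replicate 2, and that of Mylk was 1.00 and 0.02. Smtn (smoothelin) had a log2 fold change of −0.24, Des 0.13 and Synpo2 0.06. Myocd, the SRF coactivator particular to muscle, lay between 0.22 and 0.65 CPM in all 4 libraries, and Synpo2 between 0.68 and 0.98.

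Among 25 other contractile and actin-binding genes, 6 (Myh11, Mylk, Smtn, Lmod1, Des and Synpo2) are also smooth muscle markers counted above. EdgeR and DESeq2 each called 0 of the 25. At an unadjusted p under 0.05 by edgeR, 3 were higher (8.48% of all genes) and 3 lower (9.31%). The median log2 fold change of the 25 was 0.05 (0.09 in replicate 1 and −0.00 in replicate 2). Of the 19 that are in no other list, 1 was higher and 2 lower at an unadjusted p under 0.05, with a median of −0.02. The 2 most abundant were Flna, a crosslinker of actin filaments (1416 and 1108 CPM with dox, 1170 and 1056 CPM without), and Myh9, a nonmuscle myosin heavy chain (979 and 774 CPM with dox, 1040 and 967 CPM without). Both were lower in +dox replicate 2 than in +dox replicate 1, and neither passed the threshold.

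The regulators of these genes were likewise not called. Of 17 genes of the SRF, YAP and TGF-beta pathways, with Myocd again among them, edgeR and DESeq2 each called 0. At an unadjusted p under 0.05 by edgeR, 3 were higher (8.48% of all genes) and 4 lower (9.31%). Srf had a log2 fold change of 0.08, Mkl1 and Mkl2, which code for MRTF, had 0.23 and 0.00, and Myocd −0.31. Yap1 had −0.10 and Wwtr1, which codes for TAZ, −0.38. Of the TEAD genes, Tead1 had −0.17, Tead2 −0.46 (adjusted p = 0.0564 by edgeR), Tead3 0.04 and Tead4 −0.15. Lats1 had −0.42 (adjusted p = 0.0966 by edgeR) and Lats2 0.29. Of the TGF-beta genes, Tgfb1 had −0.03, Tgfb2 0.69, Tgfb3 1.23, Tgfbr1 −0.36 and Tgfbr2 0.84. The adjusted p of Tgfb3 was 0.0692 by edgeR and 0.0377 by DESeq2. In replicates 1 and 2 the log2 ratio was 1.77 and 0.43 for Tgfb3, 1.20 and −0.11 for Tgfb2, and 1.51 and −0.29 for Tgfbr2.

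Of 13 other matricellular genes and YAP or TGF-beta targets, edgeR and DESeq2 each called 0. At an unadjusted p under 0.05 by edgeR, 8 were higher (8.48% of all genes) and 1 lower (9.31%). The median log2 ratio of the 13 was 0.98 in replicate 1 and 0.05 in replicate 2. Thbs1 (thrombospondin) lay at 757 and 228 CPM in +dox replicates 1 and 2 and at 236 and 222 CPM in −dox replicates 1 and 2. Ajuba, a LIM protein that binds Hippo kinases, lay at 408, 373, 351 and 299 CPM in the same order. Thbs1 stood out in +dox replicate 1 alone, and Ajuba was higher in both +dox libraries.

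The genes whose pattern over the 4 libraries came nearest to the mean of the 10, as the Euclidean distance between log2 levels centred on each gene's mean, were Ptprn (0.0234), Cyb5d2 (0.0343), Lix1l (0.0421), Prkcdbp (0.0444) and Pbxip1 (0.0626), out of 11255 genes outside all lists that averaged 5 CPM or more. Ptprn lay at 40.3 and 27.8 CPM in +dox replicates 1 and 2 and at 25.5 and 27.4 CPM in −dox replicates 1 and 2, so the likeness rests on a high +dox replicate 1.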

How the data were processed

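Reads had been trimmed (cutadapt), mapped with TopHat2 (mm9), cleared of PCR duplicates and counted where unique on exons by HOMER, and the authors deposited the raw counts per gene in a table for each replicate. Tool versions and strand use are not given in the sources used here. Tables were joined by gene symbol, since 547 of 24421 genes had different transcripts in the tables (the 10 genes did not). Libraries were grouped by their labels, and the study's methods call the replicates biological. ChIP-seq and Hi-C data were not analysed here.

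The test was edgeR's quasi-likelihood test (version 4.0.16, with R 4.3.3 and limma 3.58.1) on genes with a count of 1 or more in any library, with TMM scaling, no replicate block, Benjamini-Hochberg adjustment and a threshold of 0.01. DESeq2 1.42.0 and other scalings, filters and left-out libraries were alternatives. Ratios within a table used a prior count of 2. Standard errors came from the test statistic. RPKM used the transcript lengths in the tables, and shared 50-base stretches GENCODE transcripts.

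The members and lists were chosen with earlier results of these data known. Named are the 10 genes, Ctcf, listed genes that passed the threshold, smooth muscle markers and other actins. The SRF, MRTF, YAP, TEAD, Lats and TGF-beta genes are named too. So are the 2 most abundant genes of each other list and the 5 with the most similar pattern. The test was tried on simulated counts. When each simulated gene had its own spread, it made more false calls than the threshold states; it kept within the threshold when the spread followed the trend with abundance, a simulation adopted after the result of the first had been seen.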

Additional observations from a re-analysis of the deposited data

How the results depend on the processing

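EdgeR's quasi-likelihood test called 120 genes and 0 of the 10. DESeq2 called 375 genes and 1 of the 10, edgeR's likelihood ratio test 457 and 2 (Acta2 and Actg2), a threshold of 0.05 573 and 2 (Acta2 and Actg2), filterByExpr 11 genes, and adjusted deviances 0 genes (3254 at an unadjusted p under 0.05, 4 of the 10 among them). With a replicate block edgeR called 786 genes and 4 of the 10, Acta2, Actg2, Myl9 and Ctgf; the numbers are not shown to pair the libraries, since there are 2 pairs from 1 clone and same-numbered libraries deviated together with a correlation of 0.196 over 13911 genes. Leaving out each library gave 0 to 992 genes, 0 to 6 of the 10, and 6 to 9 of the 10 not overlapping (5 with all libraries). Of expressed genes 79.2% and 76.9% did not overlap without +dox replicate 1 or 2 (9 of the 10 each), and 76.5% and 75.0% without −dox replicate 1 or 2 (6 each). Of the listed genes other than the 10, 1 was called, against 3 by DESeq2, 5 by the likelihood ratio test, 27 with the replicate block, 0 with adjusted deviances or filterByExpr and 0 to 47 with a library left out. Of all genes tested, edgeR's quasi-likelihood test called 0.599%, DESeq2 1.87%, the likelihood ratio test 2.28% and the replicate block 3.92%. The lists outside the 10 held from 4 genes (other actins) to 26 (fibroblast genes), with some genes shared between lists. Enrichment of the listed genes among those called was not tested. With total counts 2 of the 10 were over 2-fold higher in replicate 1, against 3.

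The log2 fold change reversed with total counts for Cnn1 (−0.0015) and Cyr61 (−0.0175), and with single libraries left out for Tagln (−0.50 to 0.10, with all libraries −0.17), Cnn1 (−0.23 to 0.27, with all libraries 0.04), Tpm2 (−0.30 to 0.63, with all libraries 0.24), Cald1 (−0.25 to 0.47, with all libraries 0.15) and Cyr61 (−0.17 to 0.25, with all libraries 0.03). It was positive for Tagln without +dox replicate 2, and negative without +dox replicate 1 for Cnn1, Tpm2 and Cald1, without −dox replicate 2 for Cnn1 (−0.05), and without +dox replicate 2 (−0.07) or −dox replicate 1 for Cyr61. The causes were not tested. Of 120 fold changes under 12 alternatives, 94 kept direction and call, 17 newly passed and 9 reversed. Depth limits Actg2 most, with 138 to 359 reads per library.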

Other observations

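Other cell types were followed by lists of their markers. Of 12 ES cell genes edgeR and DESeq2 each called 0. At an unadjusted p under 0.05 by edgeR, 5 were higher (8.48% of all genes) and 0 lower (9.31%). The summed level of the 12 was 6679 and 7475 CPM with dox and 6058 and 6415 CPM without (replicates 1 and 2). Pou5f1, the ES cell factor Oct4, lay at 1148 and 1254 CPM with dox and at 949 and 1016 CPM without, and Esrrb, a nuclear receptor of naive ES cells, at 1025 and 1070 CPM with dox and at 1030 and 927 CPM without. In sum both +dox libraries lay above both −dox libraries, and +dox replicate 1 lay below +dox replicate 2.

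The list of 11 striated muscle genes leaves out the cardiac actin Actc1, which edgeR and DESeq2 called, and the skeletal actin Acta1, described above. Of these 11 genes edgeR and DESeq2 each called 0. At an unadjusted p under 0.05 by edgeR, 1 was higher (8.48% of all genes) and 1 lower (9.31%). The summed level of the 11 was 63.4 and 52.6 CPM with dox and 55.3 and 55.2 CPM without. Ttn (titin) lay at 28.5 and 17.0 CPM with dox and at 18.8 and 21.4 CPM without, and Actn2 at 16.4 and 15.3 CPM with dox and at 17.0 and 13.9 CPM without. Of 7 endothelial and pericyte genes edgeR called 0, with 4 higher (8.48% of all genes) and 1 lower (9.31%) at an unadjusted p under 0.05. DESeq2 called Mcam, an adhesion molecule, higher (120.3 and 119 CPM with dox, 86.7 and 82.7 CPM without, log2 fold change 0.50). Vwf lay at 11.6 and 13.6 CPM with dox and at 22.6 and 17.2 CPM without. Both +dox libraries lay above both −dox libraries in 3 of the 7 (26.1% of expressed genes) and below in 1 (27.7%). The median log2 ratio of the 7 was 0.96 in replicate 1 and 0.19 in replicate 2. Of the 6 chromosome Y genes, Zfy1 had no read in any library, and the other 5 summed to 10.5 and 3.28 CPM with dox and to 2.49 and 2.67 CPM without.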
